A study of Mus musculus with 76 samples.

Results

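The genomic intervals described here are distal regions that carried an H3K27ac peak in the mouse diencephalon at the embryonic stage E11.5 and none at E17.5. Wild type H3K27ac peaks of all 5 peak lists, 2 from the earlier stage and 3 from the later, were merged wherever they overlapped by at least 1 bp, which gave 98868 regions. Of these, 81328 lay over 5 kb from every protein-coding gene start in the GENCODE annotation of the mm39 genome and were called distal. The E11.5-only set holds the distal regions with a peak in both E11.5 lists and in no E17.5 list, 3146 in all. By the same rule, 22150 distal regions were E17.5-only (no E11.5 list and all 3 E17.5 lists) and 7942 were called in all 5 lists. The E11.5 lists held 36146 and 32415 peaks and the E17.5 lists 62715, 74796 and 77412, so class sizes also depend on list length. With equal numbers of peaks per list the members numbered 4951. The members were thus chosen by the presence of wild type H3K27ac peaks, and their H3K27ac values are given as a description only.

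The study profiled developing diencephalon of wild type C57BL/6J mice and of a homozygous humanized line on the same strain. In that line, made by CRISPR/Cas9, human sequence replaces the mouse enhancer locus hs754 on chromosome 13. Each replicate pooled one litter, with 6 embryos at E11.5 and 3 at E17.5. In each genotype the 3 histone marks were assayed in 2 replicates of the earlier and 3 of the later stage, CTCF in 3 replicates of the later stage, and poly(A) RNA in 4 replicates of each. Matched input libraries were not analysed here. The stages also differ in pool size and, for H3K27ac, in the amount of chromatin used, so these cannot be told apart from stage. The study's methods state that its H3K27ac antibody lot also binds acetylated lysine 5 of histone H2B. The humanized libraries were read as separate samples of the same stages, outside chromosome 13 for peaks, because coordinates there are shifted. The study also describes copy number differences on chromosome 19 between some samples, and the 76 members on that chromosome were kept.

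Distal enhancers are stretches of DNA bound by transcription factors that raise the transcription of a gene from a distance. Acetylation of histone H3 at lysine 27 (H3K27ac) marks enhancers and promoters in use, whereas trimethylation of the same residue (H3K27me3) is laid down by Polycomb repressive complexes and marks genes kept silent, often those of developmental regulators. H3K4me3 is typical of promoters, and CTCF is a zinc finger protein that anchors chromatin loops. In the early diencephalon, dividing progenitors are patterned into the future thalamus, prethalamus and hypothalamus, and by the end of gestation most of these cells have become neurons and the first glia.

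Sequences of 6 regions that recur in the results are shown on the plus strand of mm39, read from the reference genome. The first 3 are 300 bases around the H3K27ac summit of regions near Greb1, Fignl2 and Irx3, which were among the members with the highest H3K27ac. The regions near Greb1 and Fignl2 lie in introns of those genes, and the region near Irx3 is intergenic. Capitals mark matches on either strand to the 5 of 17 motifs that exceeded their share in all distal regions by most: ACAAAG and ACAATG (both of SOX type), TAATCC (OTX type), CTTGAG (NKX2 type) and CAGATG (the NEUROD and NEUROG type of E-box). None of these letters occurs in the Greb1 and Irx3 windows.
Greb1, chr12:16840414-16840713: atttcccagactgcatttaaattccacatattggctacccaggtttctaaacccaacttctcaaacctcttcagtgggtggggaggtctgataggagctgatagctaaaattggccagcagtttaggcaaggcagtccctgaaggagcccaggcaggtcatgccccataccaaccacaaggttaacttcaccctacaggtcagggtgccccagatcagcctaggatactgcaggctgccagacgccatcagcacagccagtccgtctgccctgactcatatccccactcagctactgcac
Fignl2, chr15:100964582-100964881: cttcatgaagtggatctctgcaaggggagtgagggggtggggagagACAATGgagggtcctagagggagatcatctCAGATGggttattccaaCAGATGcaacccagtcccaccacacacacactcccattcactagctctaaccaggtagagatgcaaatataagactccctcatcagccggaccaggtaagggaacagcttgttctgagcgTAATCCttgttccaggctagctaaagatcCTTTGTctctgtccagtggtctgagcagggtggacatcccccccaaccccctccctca
Irx3, chr8:92724273-92724572: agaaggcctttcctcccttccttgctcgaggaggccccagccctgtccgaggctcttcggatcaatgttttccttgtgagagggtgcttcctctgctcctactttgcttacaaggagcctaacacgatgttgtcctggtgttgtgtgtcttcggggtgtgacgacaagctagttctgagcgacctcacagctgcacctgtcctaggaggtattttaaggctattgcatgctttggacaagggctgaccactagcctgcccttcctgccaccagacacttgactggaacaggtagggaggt

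The next pair shows 300 bases around the H3K27ac summit of a region in an intron of Pax3 and of an intergenic region downstream of the Foxa2 start. Both lay under strong H3K27me3 at both stages. Capitals mark the same motifs.
Pax3, chr1:78159500-78159799: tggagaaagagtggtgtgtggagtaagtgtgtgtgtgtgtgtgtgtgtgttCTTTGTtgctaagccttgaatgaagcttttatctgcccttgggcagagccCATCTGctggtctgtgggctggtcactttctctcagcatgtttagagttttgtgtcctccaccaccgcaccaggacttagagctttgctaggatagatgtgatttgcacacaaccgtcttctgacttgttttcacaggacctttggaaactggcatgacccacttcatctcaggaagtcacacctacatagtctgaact
Foxa2, chr2:147872266-147872565: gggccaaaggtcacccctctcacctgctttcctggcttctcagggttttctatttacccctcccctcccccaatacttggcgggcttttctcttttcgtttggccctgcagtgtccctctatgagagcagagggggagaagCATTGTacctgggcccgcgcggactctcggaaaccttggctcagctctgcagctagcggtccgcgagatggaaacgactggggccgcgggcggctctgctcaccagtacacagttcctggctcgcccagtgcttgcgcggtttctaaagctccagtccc

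The last sequence shows 100 bases around the CTCF summit of an intergenic member near Trim71, among those with the strongest CTCF. A core of the CTCF motif, 12 letters long and searched on both strands, would be in capitals and has no match in this window.
Trim71, chr9:114412943-114413042: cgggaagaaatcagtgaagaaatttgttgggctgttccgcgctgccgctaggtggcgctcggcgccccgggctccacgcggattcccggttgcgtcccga

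The E11.5-only regions were narrow, with a median width of 649 bp, against 1106 bp for E17.5-only regions and 2082 bp for regions of both stages. These are widths of peaks merged over 2, 3 and 5 lists, and a merged region can only widen as lists are added. Their median distance to the nearest protein-coding start was 51.9 kb, and 1517 of them (48.2%) had a start within 50 kb. Of the regions, 1452 (46.2%) were intergenic, 1350 (42.9%) intronic and 344 (10.9%) touched an exon. They were spread over the autosomes and the X chromosome, making up between 3.05% (chromosome 9) and 4.73% (chromosome 11) of the distal regions of each autosome. Median fold enrichment, the peak height over the local background as MACS2 reports it, was 4.30 in E11.5 replicate 1 and 4.29 in replicate 2. It was 5.92 and 5.64 in the same libraries for regions of both stages. A -log10 q of at least 5 in both lists was reached by 1268 members (40.3%), so most members were modest peaks.

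At the edges of the rule, the closest member lay 5.006 kb from the start of Ephb2, and the farthest region of the same pattern left out lay 4.995 kb from the start of Gfap. In all, 459 regions with the same H3K27ac pattern lay within 5 kb of a start and were not members. A further 725 distal regions had peaks in both E11.5 lists and 1 of the 3 E17.5 lists, 732 in both and 2 of 3, and 6565 in 1 of the 2 E11.5 lists and no E17.5 list. The E17.5 peaks in the first of these groups were low, with a median fold enrichment between 3.44 and 3.51 by library.

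Among the members with the highest H3K27ac, a region in intron sequence of Greb1, which encodes a cofactor of steroid receptors, had fold enrichments of 14.7 and 15.4 in the 2 E11.5 lists. The region in Fignl2 was the widest, 5079 bp, with 12.4 and 16.6. The intergenic region 193 kb upstream of Irx3, a homeodomain gene of early neural patterning, had 14.4 and 11.1. The highest of all overlapped an exon of the potassium channel gene Kcnh2, at 13.98 and 19.9. In the humanized E11.5 lists the same regions were again called, at 16.6 and 13.5 for Greb1, 16.3 and 9.79 for Fignl2, 6.23 and 10.96 for Irx3, and 25.3 and 22.9 for Kcnh2. Of the 3 humanized E17.5 lists, 1 held a peak at the Greb1 region (5.23) and none held one at the other 3.

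H3K27ac of the humanized line, which the rule did not use, followed the wild type pattern at most members. Of the 2988 members outside chromosome 13, 1932 (64.7%) had a peak in both humanized E11.5 lists. The share was 16.2% for all distal regions and 89.8% for regions of both stages, so members recurred less often than the latter. Only 19834 and 16581 of the 81328 distal regions had a peak in wild type E11.5 replicates 1 and 2. The rule that chose members therefore sets much of their distance from all distal regions here. The full pattern, both E11.5 lists and no E17.5 list, was met by 1817 members (60.8%), against 4.55% of all distal regions. No member had a peak in all 3 humanized E17.5 lists, where 28.0% of all distal regions did, and 2832 members (94.8%) had one in none. At least 1 of the 3 held a peak at 156 members (5.22%), against 60.0% of all distal regions. Neither E11.5 list held one at 345 members (11.55%), against 74.0%. None of the members had a peak in all 5 humanized lists, where 9.07% of all distal regions did. By library, 75.8% and 77.3% of members had a peak at E11.5, and 2.24%, 2.68% and 0.837% had one at E17.5. The last value is from humanized E17.5 replicate 3, whose list was the shortest of its group, with 47127 peaks against 63942 and 65176.

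The share of members with the same pattern in the humanized line was larger where their H3K27ac was higher in wild type. It was 34.3% among the 738 members of the lowest of 4 equal classes of mean fold enrichment, 55.0% and 66.4% in the middle classes and 87.6% in the highest. The share with no humanized E17.5 peak differed little, between 93.6% and 95.5%. The share with a peak in both humanized E11.5 lists ran from 36.0% to 93.8%, so members with low H3K27ac were missed mainly at E11.5.

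**Figure D1:**
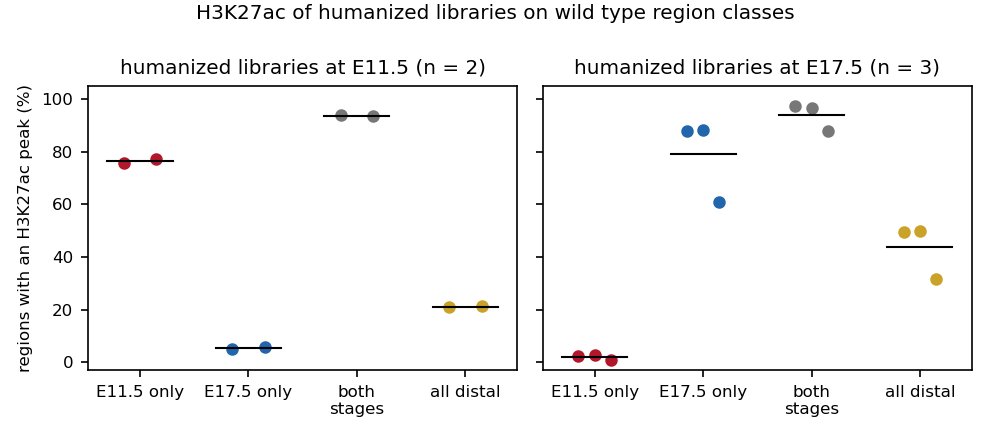
Percent of distal regions outside chromosome 13 with an H3K27ac peak in each humanized library at E11.5 and E17.5, for the wild type classes E11.5-only, E17.5-only and both stages and for all distal regions. Points are libraries and lines are means. The E11.5-only regions stand at 75.8% and 77.3% in the E11.5 libraries and at 0.837% to 2.68% in the E17.5 libraries.

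H3K27me3 was found at more members at E17.5 than at E11.5. By library, 5.18% and 3.91% of members overlapped a wild type H3K27me3 peak at E11.5, and 564, 409 and 436 of the 3146 (13.9% in replicate 3) did at E17.5, so the stages did not overlap. All 3 E17.5 lists covered 347 members (11.03%), against 5.44% of all distal regions, 4.82% of E17.5-only regions and 10.9% of regions of both stages. Both E11.5 lists covered 115 members (3.66%), against 3.33% of all distal regions. A gain, from no E11.5 list to all 3 E17.5 lists, was seen at 207 members (6.58%). It was seen at 2.54% of all distal regions and 5.48% of regions of both stages. A loss, from both E11.5 lists to no E17.5 list, was seen at 2 members, against 0.405% of all distal regions and 1.27% of regions of both stages. All 5 lists covered 102 members (3.24%; 2.31% of all distal regions), and no list covered 2510 (79.8%; 87.4%). In the humanized line 131 members (4.38%; 4.27% of all distal regions) were covered in both E11.5 lists and 270 (9.04%; 4.37%) in all 3 E17.5 lists. The wild type E17.5 H3K27me3 lists were also longer, with 27447 to 43694 peaks against 13845 and 19159 at E11.5. In the humanized line the list lengths overlapped, with 19187 to 31585 peaks at E17.5 and 16983 and 21289 at E11.5.

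With 2 against 3 wild type libraries no exact permutation test can go below 0.1, so the humanized libraries of the same mark were added and stage was permuted within genotype (10 libraries, smallest possible p 0.01). The mean share of members with H3K27me3 was 5.13% over the 4 E11.5 libraries and 13.3% over the 6 E17.5 libraries (exact permutation test, p = 0.01, adjusted p = 0.0329 over 23 tests). The difference between members and all other distal regions went from 0.347 percentage points at E11.5 to 6.31 points at E17.5 (exact permutation test, p = 0.01, adjusted p = 0.0329). Against E17.5-only regions it went from -0.437 to 6.83 points, and against regions of both stages from -4.92 to -0.266 points (both exact permutation p = 0.01, adjusted p = 0.0329). At E17.5, members had the higher share than all other distal regions in 6 of 6 libraries, 13.3% against 6.97% (exact sign permutation over libraries, p = 0.03125, the smallest possible, adjusted p = 0.0449).

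Wider regions overlap a peak more readily, and the regions of both stages were the widest. In an alternative chosen after seeing the data, within 300 bases around the H3K27ac summit, 12.1% of members and 5.96% of all other distal regions had H3K27me3 at E17.5, and the regions of both stages had 9.68%. Members therefore differed from the regions of both stages by -0.266 points over whole regions and by 2.398 points in equal windows, each in 6 of 6 libraries (exact sign permutation p = 0.03125 for both), so the order of these classes depended on region width.

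**Figure D2:**
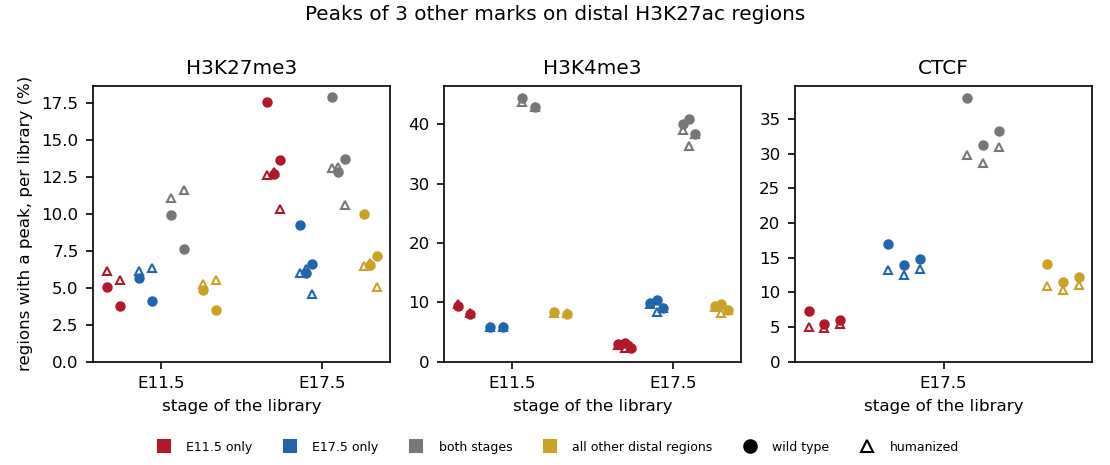
Percent of distal regions outside chromosome 13 with an H3K27me3, H3K4me3 or CTCF peak in each wild type (circles) and humanized (triangles) library, for the 3 classes and for all other distal regions, each panel with its own axis. Outside chromosome 13 the E11.5-only regions range from 3.78% to 6.16% for H3K27me3 at E11.5 and from 10.3% to 17.6% at E17.5, and for CTCF they lie between 4.82% and 7.26%, under the other classes in all 6 libraries.

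A CpG island (at least 200 bases, 50% GC and an observed to expected CpG ratio of 0.6) lay within 1 kb of 172 of the 347 members with H3K27me3 in all 3 E17.5 lists (49.6%) and of 481 of the 2519 with none (19.1%). The shares for all distal regions were 64.1% and 24.4%.

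The member with the strongest H3K27me3 overlapped an exon of Tfap2a, an AP-2 factor of neural crest, with fold enrichments of 25.5 and 21.2 in the E11.5 lists. In the E17.5 lists it had 22.1, 16.1 and 16.9. Members of Pax3 and Foxa2 came next. Pax3, a paired box factor of the dorsal neural tube, had 4 members in its introns, all within a stretch with fold enrichments of 15.9 and 12.1 in the E11.5 H3K27me3 lists and 17.1, 14.4 and 14.7 in the E17.5 lists. H3K27ac at these members was modest, with mean fold enrichments from 3.37 to 5.35. Foxa2, a forkhead factor of the floor plate, had 6 members centred 16.5 to 141 kb downstream of its start, all covered in the 3 E17.5 lists and 5 covered in both E11.5 lists. The 3 closest lay in a stretch at 19.7 and 16.1 at E11.5 and between 14.0 and 17.4 at E17.5. In these pooled tissues the E11.5 overlap does not show whether both marks sat in the same cells.

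Near other genes more members were covered at E17.5 than at E11.5. Of the 9 members of Mecom, a zinc finger factor of blood and neural progenitors, 7 were covered in all 3 E17.5 lists and 3 in both E11.5 lists. Gli3, the transcription factor that mediates repression in Hedgehog signalling, had 6 of 9 covered at E17.5 and 1 of 9 in both E11.5 lists. Barhl2, a homeodomain factor of the developing thalamus, had 3 of 6 at E17.5 and none in both E11.5 lists, and Irx3 had 5 of 5 and 2 of 5. By contrast, none of the 9 members of Ephb2, the 6 of Hbb-y or the 9 of Dapk2 had an H3K27me3 peak in any E17.5 list.

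**Figure D3:**
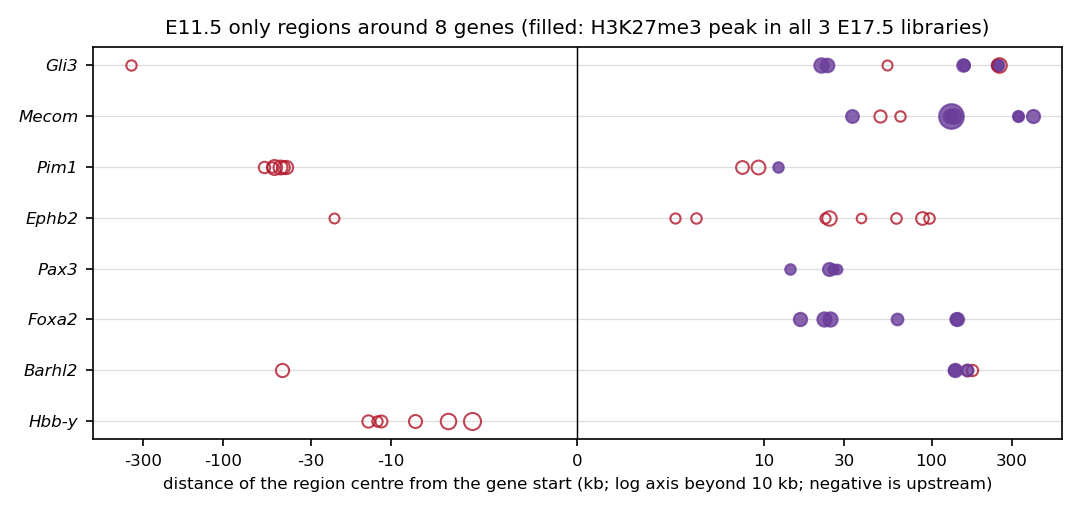
Distance in kb of the centres of E11.5-only regions from the start of 8 nearest genes (log axis beyond 10 kb, negative upstream), with circles that grow with mean E11.5 H3K27ac fold enrichment. Filled circles have H3K27me3 in all 3 E17.5 lists. All members of Pax3 and Foxa2 are filled, as are 7 of 9 for Mecom and 6 of 9 for Gli3, and 0 are filled for Ephb2 and Hbb-y.

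H3K4me3 moved the other way. Both wild type E11.5 lists had H3K4me3 at 210 members (6.68%; 7.36% of all distal regions), and all 3 E17.5 lists at 71 members (2.26%; 7.86% of all distal regions). At 118 members (3.75%) the mark was in both E11.5 lists and no E17.5 list, against 0.857% of all distal regions and 4.18% of regions of both stages. All 5 lists held it at 65 members (2.07%; 5.92%). In the humanized line 210 members (7.03%; 7.38% of all distal regions) had it in both E11.5 lists and 59 (1.97%; 7.31%) in all 3 E17.5 lists. Over both genotypes the mean share of members went from 8.84% at E11.5 to 2.68% at E17.5 (exact permutation test, p = 0.01, adjusted p = 0.0329). The difference from all other distal regions went from 0.627 to -6.32 points (exact permutation test, p = 0.01, adjusted p = 0.0329), while that from the regions of both stages went from -34.7 to -36.2 points and did not pass after adjustment (exact permutation test, p = 0.05, adjusted p = 0.0677). A pair of neighbouring members in an intron of Ephb2 overlapped one H3K4me3 peak per E11.5 list, with fold enrichments of 70.9 and 78.0, and no peak in any E17.5 list. These members lay 5.006 and 5.798 kb from the gene start, and the values are those of the whole peak. With distance taken from all transcript starts, 5.10% of members had H3K4me3 in both E11.5 lists. Members near Melk, a mitotic kinase gene, and Psd3 kept strong H3K4me3 at both stages, from 32.1 to 53.5 and from 49.2 to 61.7.

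CTCF was measured at E17.5 only and was less frequent at members than in the rest of the distal regions. All 3 wild type lists had CTCF at 141 members (4.48%), against 9.80% of all distal regions, 12.01% of E17.5-only regions and 28.0% of regions of both stages. In the humanized line it was in all 3 lists at 122 members (4.08%; 8.79% of all distal regions). By library, 7.12%, 5.34% and 5.75% of members had a peak, where 13.7%, 11.1% and 11.9% of all distal regions did. Over 6 libraries of both genotypes the mean was 5.65% for members and 11.7% for all other distal regions, lower in 6 of 6 libraries (exact sign permutation over libraries, p = 0.03125, adjusted p = 0.0449). In the windows of 300 bases the shares were 3.79% and 8.004%, again lower in 6 of 6 libraries (p = 0.03125 by the same exact test). E11.5 CTCF was not analysed here, so a change with stage cannot be given.

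Among the members with the strongest CTCF, one near Glod4 had fold enrichments of 57.0, 53.7 and 60.4 in the 3 lists, and one near Trim71 had 52.2, 51.9 and 53.3. The Glod4 region had no H3K27me3 peak in any wild type list, whereas the Trim71 region also had H3K27me3 of 2.87, 2.78 and 2.86 at E17.5 and H3K4me3 in all 5 lists. An exact match to the core of the CTCF motif occurred within 100 bases around the summit at 40 of the 141 members (28.4%). It occurred at 24.6% of all distal regions with CTCF in all 3 lists. Both shares leave out sites that differ from these letters. At 75 of the 141 (53.2%) the CTCF summit lay inside the H3K27ac region, against 65.0% for all distal regions with CTCF in all 3 lists. Both H3K27me3 and CTCF in all 3 E17.5 lists were found at 30 members (0.954%; 0.978% of all distal regions), and 2207 members (70.2%) had no H3K27me3, H3K4me3 or CTCF peak in any wild type list, against 71.2% of all distal regions.

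Base composition at the members was close to that of other distal regions. Median GC content of the 300 bases around the summit was 49.0%, against 48.7% for all distal regions and 52.0% for regions of both stages. ACAAAG occurred in 32.8% of member windows and 29.3% of all distal windows, TAATCC in 10.4% and 9.01%, CTTGAG in 18.1% and 16.7%, CAGATG in 25.9% and 24.8%, and ACAATG in 17.6% and 16.7%, on either strand. In windows of regions of both stages the same motifs, in this order, were at 33.7%, 7.38%, 15.6%, 22.8% and 16.8%. ACAAAG was thus more frequent there than at members. CATTCC (TEAD type) was at 15.6% against 16.8%. The motif of the blood and neural zinc finger factors, AGATAA, was at 13.2% against 14.3%. These shares are descriptions of letters and show no binding.

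Expression of the nearest genes was then compared between stages. The 3146 regions had 1850 nearest protein-coding genes, of which 1171 were nearest to 1 member and 148 to 4 or more, so regions that share a gene do not count as separate genes. Also, 1270 of the 1850 were nearest to an E17.5-only region as well. Of the 1850, 5 could not be matched to a counted gene and 239 did not pass the filter on low counts, which left 1606 tested. The 8 wild type RNA libraries held 18124370 to 24272569 counts on genes.

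One library limits these comparisons. E17.5 wild type replicate 1 correlated at r = 0.918 across genes with the mean of the other samples of its group, where the other 7 libraries reached 0.983 to 0.997, and 4457 of 14340 protein-coding genes lay over 2-fold from the other samples of its group. Values without it are therefore given beside the main counts and where they change a call. The summed level of 16 diencephalon markers was 1787 to 2399 CPM (gene counts scaled to the library size) at E11.5 and 1613 to 2002 CPM at E17.5, with the hypothalamic gene Rax near 0 at both stages, and 14 markers of neighbouring brain regions summed to 16.5 to 27.2 CPM and 91.4 to 160.4 CPM.

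Among the 1606 nearest genes tested, 540 (33.6%) were lower at E17.5 and 479 (29.8%) were higher (edgeR quasi-likelihood test, adjusted p under 0.05), where 25.7% and 32.2% of all protein-coding genes were. Their median log2 fold change was -0.08, against 0.06 over all protein-coding genes, 0.33 over the genes nearest to E17.5-only regions and 0.14 over those nearest to regions of both stages. Without E17.5 wild type replicate 1, 701 (43.2%) were lower and 570 (35.1%) higher, beside 37.3% and 38.3% of all protein-coding genes. In the humanized line 715 (44.6%) were lower and 601 (37.5%) higher, beside 40.6% and 39.8%. Of the 538 genes lower in wild type that were also tested in the humanized line, 518 (96.3%) were called lower there too. In wild type, every E17.5 sample lay below every E11.5 sample for 525 nearest genes (32.7%) and above for 431 (26.8%). Over all tested protein-coding genes these shares were 24.3% and 28.6%, so groups without overlap were common. These are bulk samples, in which fewer cells of a type and less RNA per cell cannot be told apart.

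The surplus of lower over higher genes was small and depended on how members were chosen and assigned to genes. With regulatory domains of GREAT type, which give a region to several genes, 808 (30.6%) were lower and 867 (32.8%) higher. With equal numbers of peaks taken from each H3K27ac list, which changes the members, 705 (31.3%) were lower and 705 higher. Both shares of lower genes were above the 25.7% of all protein-coding genes.

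Of the 138 tested genes nearest to 4 or more members, 71 (51.4%) were lower and 20 (14.5%) higher, with a median of -0.65, whereas genes nearest to 2 or 3 members were lower in 34.4% and 33.1%. Genes with a member within 25 kb were lower in 39.9% and higher in 20.8% of 572 tests, with a median of -0.37, whereas genes with a member over 100 kb away were lower in 30.3% and higher in 39.2% of 508. For any distal region the shares were 25.5% and 35.7% within 25 kb and 20.8% and 46.3% over 100 kb. Without E17.5 wild type replicate 1 the genes with 4 or more members were lower in 64.0% and higher in 18.7%, and those with a member within 25 kb in 52.9% and 25.4%. Genes with no E17.5-only region as a neighbour were lower in 39.3% and higher in 20.7%, and those with one in 31.2% and 33.7%. For the splits by number of members and by E17.5-only neighbour, no matching share over any distal region was taken.

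Of the 191 tested genes nearest to a member with H3K27me3 in all 3 E17.5 lists, 103 (53.9%) were lower and 35 (18.3%) higher, with a median log2 fold change of -0.79. Among genes nearest to any distal region with H3K27me3 in those lists, 29.4% were lower and 35.7% higher, and among genes with a member free of the mark 31.6% and 30.9%. Where all 5 lists had H3K27me3, 40 of 66 genes (60.6%) were lower and 11 higher. For members with CTCF in all 3 lists 52 of 123 genes (42.3%) were lower and 25 higher, and for members with H3K4me3 in both E11.5 lists 86 of 173 (49.7%) were lower and 31 higher. Genes nearest to any distal region were lower in 24.4% and higher in 37.9% where it had CTCF, and in 26.8% and 35.7% where it had H3K4me3. Without E17.5 wild type replicate 1 the genes with H3K27me3 at E17.5 were lower in 61.9% and higher in 22.7%, those with CTCF in 54.5% and 26.0%, and those with H3K4me3 in 60.3% and 22.4%. These groups of genes share members with one another, and no test between them was made.

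**Figure D4:**
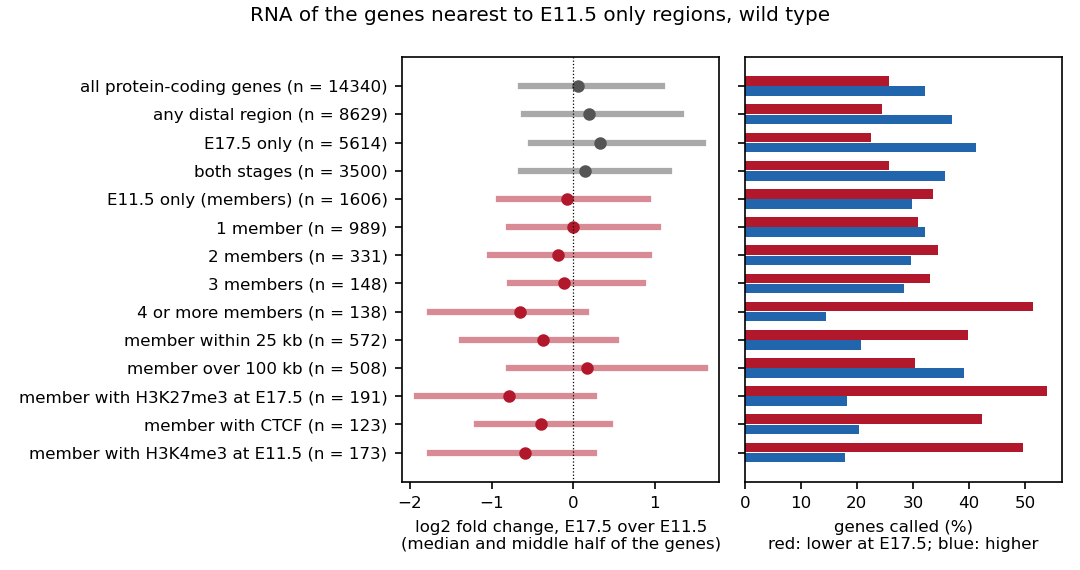
RNA change of genes nearest to region classes between wild type E17.5 and E11.5. The left panel gives the median log2 fold change (points) with the range from lower to upper quartile (lines), and the right panel the percent of tested genes called lower (red) or higher (blue) by edgeR. Lower genes make up 33.6% of all genes nearest to members, 51.4% of those with 4 or more members and 53.9% of those with H3K27me3 in all 3 E17.5 lists, beside 25.7% of all protein-coding genes.

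The genotypes were compared at each stage as well. The edgeR test called 0 nearest genes between humanized and wild type at E11.5 and 0 at E17.5 (0.00% of all protein-coding genes at either stage), with 130 of 1573 and 14 of 1593 nearest genes at an unadjusted p under 0.05, beside 781 of 13757 and 146 of 14358 protein-coding genes, and DESeq2 also called 0 and 0. The interaction of stage with genotype was called for 0 nearest genes by edgeR (0.00% of all protein-coding genes), with 161 of 1633 at an unadjusted p under 0.05, beside 1309 of 14814 protein-coding genes.

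Diencephalic and hypothalamic patterning factors made up the longest list, with 50 genes and 54 members near them. Shorter lists had 33 members for 25 proneural and neurogenic factors and 40 members for 32 axon guidance genes. Of 20 tested patterning factors nearest to members, 17 were lower and 1 higher at E17.5, with a median log2 fold change of -2.79. Of the 28 listed factors with no member, 9 were lower and 10 higher, with a median of 0.21. Without E17.5 wild type replicate 1 the counts near members were 17 lower and 2 higher, and in the humanized line 17 and 3. The higher one was Meis2, and Sim1 (log2 fold change 0.67) and Tcf7l2 (0.20) did not pass.

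Pax3 was at 42.3, 38.3, 56.7 and 44.2 CPM in the 4 E11.5 replicates and at 2.82, 2.72, 2.44 and 1.77 CPM at E17.5. Every E17.5 sample lay below every E11.5 sample, with a log2 fold change of -4.23 ± 0.24 (SE; edgeR adjusted p = 5.00e-07). Foxa2 was at 19.8, 18.1, 26.2 and 30.3 CPM at E11.5 and at 3.50, 1.96, 2.44 and 2.403 CPM at E17.5, again with no overlap (log2 fold change -3.21 ± 0.26, edgeR adjusted p = 4.08e-06). Members of both genes carried H3K27me3 in both E11.5 lists. Barhl2 stood at 117, 106, 88.6 and 96.0 CPM at E11.5 and at 14.9, 12.6, 12.6 and 12.3 CPM at E17.5. The groups did not overlap and the log2 fold change was -2.96 ± 0.17 (edgeR adjusted p = 6.46e-07).

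Irx3 was nearly constant at E11.5, with 93.3, 92.1, 89.5 and 92.6 CPM. At E17.5 it was at 18.3, 5.38, 8.36 and 7.97 CPM, highest in replicate 1, and its log2 fold change was -3.21 ± 0.34 (edgeR adjusted p = 2.35e-05). Tal2, a helix-loop-helix factor of midbrain and pretectal GABAergic neurons, had 1 member and went from 158, 104, 182 and 129 CPM to 0.680, 1.63, 0.995 and 0.927 CPM, with no overlap (log2 fold change -7.09 ± 0.34, edgeR adjusted p = 3.12e-07). Gli3, nearest to 9 members, stood at 177, 158, 226 and 191 CPM at E11.5 and at 9.67, 15.4, 15.6 and 13.2 CPM at E17.5. No samples overlapped, and the log2 fold change was -3.82 ± 0.23 (edgeR adjusted p = 6.89e-07).

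Proneural and neurogenic factors drive progenitors to leave the cycle and become neurons. Of 12 tested near members, 11 were lower and 0 higher, with a median of -1.56, and the 12 without members had 7 lower and 3 higher, with a median of -1.28. The 12th near members, Sox4, had a log2 fold change of -0.25 and did not pass. All 12 were lower without E17.5 wild type replicate 1. Olig3, which specifies thalamic progenitors, had 4 members and was at 91.2, 86.6, 58.8 and 54.6 CPM at E11.5 and 0.941, 0.707, 0.945 and 1.05 CPM at E17.5. The groups lay far apart, with a log2 fold change of -6.31 ± 0.27 (edgeR adjusted p = 2.87e-07). Neurog1, a helix-loop-helix proneural gene with 3 members, was at 23.5, 43.3, 30.5 and 37.3 CPM and then at 0.889, 0.381, 0.149 and 0.379 CPM (log2 fold change -6.23 ± 0.43, edgeR adjusted p = 1.37e-06). All 3 Neurog1 members had H3K27me3 in all 5 lists. Sox11 and the Ebf genes changed less, with log2 fold changes of -0.93 for Sox11 (5 members), -1.31 for Ebf1 (6 members) and -1.81 for Ebf2 (4 members). In the humanized line Sox11 did not pass (log2 fold change -0.27, edgeR adjusted p = 0.137).

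Progenitor and neural stem cell genes behaved similarly near members, with 10 of 11 lower and 0 higher and a median of -2.33. The 12 without members had 6 lower and 4 higher, with a median of -0.65. Nes, the intermediate filament gene of neural stem cells, had 3 exonic members centred 7.50 to 9.35 kb from its start and was at 1578, 1448, 1797 and 1632 CPM at E11.5 and at 150.0, 114, 64.7 and 51.9 CPM at E17.5. The groups did not overlap (log2 fold change -4.10 ± 0.34, edgeR adjusted p = 4.58e-06). Hmga2, a chromatin protein of fetal stem cells, fell from 205, 234, 215 and 230.2 CPM to 2.72, 3.64, 3.13 and 2.36 CPM (log2 fold change -6.23 ± 0.22, edgeR adjusted p = 2.26e-07). Sox2, a pluripotency and progenitor factor with 4 members, fell less, with a log2 fold change of -0.65 ± 0.17 (edgeR adjusted p = 0.00885).

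Cell cycle genes were lower throughout, with or without members. All 4 near members were lower (Mki67, Ccnd1, Ccnd2 and Rrm2), as were 23 of the 24 without. Mki67, the marker of cycling cells with 4 members centred 96.8 to 173 kb upstream, had a log2 fold change of -2.39 ± 0.26 (edgeR adjusted p = 2.39e-05). Among signalling ligands and antagonists of early patterning the 8 near members had 4 lower and 2 higher, and the 20 without had 14 lower and 0 higher. Wnt8b (log2 fold change -3.52), Rspo1 (-3.01), Sfrp2 (-1.68) and Sfrp1 (-1.36) were lower, and Wnt4 (1.62) and the BMP antagonist Nog (0.64) were higher.

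Genes of later neuronal function near members rose. All 5 synaptic and mature neuronal genes near members were higher, with a median of 3.12, as were all 29 without. Gria1, an AMPA receptor subunit with 1 member 213 kb from its start, was at 9.23, 5.36, 9.76 and 8.39 CPM at E11.5 and at 179.8, 257, 211 and 219 CPM at E17.5. The groups did not overlap (log2 fold change 4.71 ± 0.25, edgeR adjusted p = 4.52e-07). Rbfox1, a neuronal splicing factor, rose from 8.10, 5.36, 13.9 and 8.72 CPM to 137, 172, 148 and 173 CPM (log2 fold change 4.11 ± 0.30, edgeR adjusted p = 2.00e-06). The single members of Gria1 and Rbfox1 each had a peak in 1 of the 2 humanized E11.5 lists. A nearest start is a label of position and does not show a regulatory link.

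Axon guidance genes near members were divided, with 2 lower, 7 higher and 6 that did not pass, or 2 lower and 9 higher without E17.5 wild type replicate 1. The 17 without members had 4 lower and 11 higher. Ephb2, a receptor of ephrins with 9 members, was at 832, 942, 762 and 888 CPM at E11.5 and at 449, 229, 176 and 170.0 CPM at E17.5. Replicate 1 was the highest E17.5 sample and still lay below all E11.5 samples (log2 fold change -1.75 ± 0.30, edgeR adjusted p = 0.000636). The other lower gene was Ntn1 (log2 fold change -1.91), the gene of the guidance cue netrin, and Nrp1 (1.90), Nrp2 (1.49), Epha5 (2.17) and Plxna2 (0.87) were among the higher ones. Among 5 astrocyte and oligodendrocyte genes near members, the water channel gene Aqp4, Olig1 and Pdgfra were higher, and Sox9 and Myrf were lower. The 19 without members had 0 lower and 16 higher, with a median of 2.57.

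The genes with the most members were not all lower. Zeb2, a repressor active in neural crest and interneuron development, had 13 members, 3 of them with H3K27me3 in all 3 E17.5 lists. It was at 100.3, 69.7, 152 and 110.1 CPM at E11.5 and at 35.9, 81.6, 58.2 and 60.1 CPM at E17.5, so the groups overlapped. Its log2 fold change was -0.89 ± 0.30 (edgeR adjusted p = 0.0249), and -0.24 in the humanized line, where it did not pass (edgeR adjusted p = 0.313). Adgrl2, an adhesion receptor with 10 members, had a log2 fold change of 0.37 ± 0.20 and did not pass (edgeR adjusted p = 0.141), although without E17.5 wild type replicate 1 it was higher (0.48, edgeR adjusted p = 0.00751). Ttc8, a subunit of the BBSome of cilia with 9 members, did not pass either (-0.44 ± 0.20, edgeR adjusted p = 0.0830). Without that library Ttc8 was lower (-0.33, edgeR adjusted p = 0.0486).

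Others with many members fell clearly. Mecom was at 35.7, 31.1, 53.2 and 45.3 CPM at E11.5 and at 6.06, 8.43, 9.30 and 7.21 CPM at E17.5, with no overlap (log2 fold change -2.43 ± 0.24, edgeR adjusted p = 1.21e-05). Lower as well were Dapk2, a death-associated kinase (9 members, -2.75), the serine/threonine kinase gene Pim1 (9 members, -2.01), the chemokine receptor gene Ackr3 (8 members, -1.93) and Dipk2a (8 members, -1.31). Greb1 went from 42.1, 55.6, 72.5 and 66.7 CPM to 3.92, 4.02, 5.72 and 4.68 CPM, and Fignl2 from 34.4, 62.0, 47.6 and 66.7 CPM to 3.24, 1.85, 2.64 and 1.39 CPM. Neither pair of groups overlapped, with log2 fold changes of -3.70 ± 0.24 and -4.55 ± 0.33 (edgeR adjusted p = 1.09e-06 and 1.92e-06). Of the other genes beside the highest H3K27ac, Kcnh2 (-0.15), Tifab (0.22), Smim15 (-0.31), Urm1 (0.22) and Tox2 (0.28) did not pass, and Ank2 was higher (2.04, edgeR adjusted p = 0.000142). Without E17.5 wild type replicate 1 Kcnh2 was lower (-0.59, edgeR adjusted p = 0.00149), and Tifab (-0.45), Urm1 (-0.12) and Tox2 (-0.20) changed sign and did not pass. Near members with strong CTCF, Trim71, a regulator of early embryonic timing, fell by 5.96 on the log2 scale (edgeR adjusted p = 4.42e-07), and Glod4 (-0.32) did not pass. Glod4 was lower without E17.5 wild type replicate 1 (-0.36, edgeR adjusted p = 0.0116).

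**Figure D5:**
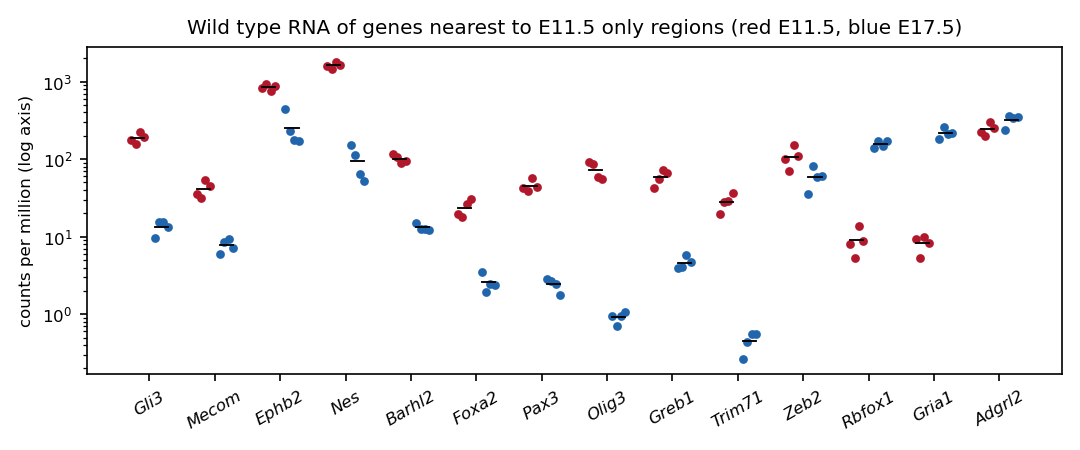
RNA level in CPM (log axis) of 14 genes nearest to E11.5-only regions in each of the 4 wild type samples at E11.5 (red) and E17.5 (blue). Points are samples and short lines are means. Gli3, Pax3, Olig3 and Nes are lower in every E17.5 sample, Rbfox1 and Gria1 are higher in every one, and the Zeb2 and Adgrl2 samples overlap between stages.

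Some members lay beside genes of other cell types. Hbb-y, the embryonic beta-like globin gene of primitive red cells, had 6 members at offsets of -13.7 to -5.67 kb from its start, with mean fold enrichments from 3.74 to 7.70 and no H3K27me3 or CTCF peak in any list. Its RNA was at 1331, 1679, 780 and 1046 CPM at E11.5 and at 0.157, 0, 0.149 and 0 CPM at E17.5 (log2 fold change -13.89 ± 0.60, edgeR adjusted p = 2.87e-07). Hemgn, an erythroid nuclear protein gene with 4 members, went from 16.9, 26.7, 19.0 and 20.3 CPM to between 0.0422 and 0.209 CPM. Over all 10 erythroid markers the summed level was 1823 to 3718 CPM at E11.5 and 196 to 315 CPM at E17.5, with 6 lower and 0 higher. Erythroid marker levels thus moved with stage, and their part in the H3K27ac pattern of these members was not tested.

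Mesenchymal and meningeal markers also moved, summing to 2205 to 2901 CPM at E11.5 and 978 to 1589 CPM at E17.5 (11 of 17 lower, 4 higher). Endothelial and pericyte markers summed to 405 to 484 CPM and 484 to 671 CPM (0 of 14 lower, 5 higher), and microglial markers to 62.5 to 82.9 CPM and 66.7 to 124 CPM (1 of 9 lower, 2 higher). Members lay near 1 erythroid, 3 endothelial, 3 mesenchymal and 1 microglial marker gene. The part of these cells in the other results was not tested.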

How the data were processed

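Diencephalon of wild type and hs754-humanized C57BL/6J mice was profiled by RNA-seq (16 samples) and ChIP-seq (36 peak lists used). The authors aligned RNA reads with STAR 2.7.9a to mm39 and deposited raw counts per gene on the basic GENCODE release 31 annotation. ChIP reads were aligned with Bowtie2 2.4.2, humanized samples to mm39 carrying the human locus, and multi-mapping and duplicate reads were removed with Sambamba. The authors called peaks in each replicate with MACS2 2.2.7.1, and the deposited lists give the fold enrichment (a ratio), -log10 p and q, a score made from q and the summit offset. The H3K27me3 lists have broad-peak form, and their settings are not given in the sources used here. The labels and the study's methods name different catalogue numbers for the H3K27ac antibody.

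Counts without regard to strand were used, so reads from overlapping or antisense genes cannot be told apart, and the stranded counts were an alternative. Libraries held 16414369 to 24272569 counts on genes, 48.1% to 58.4% of reads were not assigned to a gene, and 98.8% of 56923 gene IDs matched the annotation. Stage and genotype were compared by the edgeR 4.0.16 quasi-likelihood test (limma 3.58.1, R 4.3.3) with TMM scaling, a filter on low counts and Benjamini-Hochberg adjustment, and by DESeq2 1.42.0 as an alternative. Shares of regions with a peak were compared over libraries by exact two-sided permutation tests, adjusted over 23 tests. Python 3.11.15, pandas 2.3.3, numpy 2.4.6, scipy 1.17.1 and matplotlib 3.10.9 were used, and the steps were tested on simulated data.

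The named genes were the 10 nearest to most members, the 10 largest falls and 10 largest rises among called genes with a mean of at least 1 CPM, up to 4 of each gene list, and the nearest genes of members with the most H3K27ac, H3K27me3, CTCF or H3K4me3. Other genes of the lists are given by their fold change. The members and lists were chosen with earlier results of these data known. Some of the regions that the rule for named regions picked are not reported here.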

Additional observations from a re-analysis of the deposited data

Results flagged for a closer look

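Of 168 groups of 4 wild type RNA samples (84 named genes at 2 stages), 23 held a sample that stood apart from the other 3 by Dixon's test. Chance alone does so in about 1 in 20 groups. In 16 of the 23 the sample was E17.5 replicate 1, the library with the lowest correlation to its group. There the level was 2.04 CPM for Dapk2, 0.209 for Hemgn, 198.9 for Sox2, 14.9 for Barhl2, 7.32 for Wnt8b and 77.7 for Ccnd1. It was 132 CPM for Slit1, 69.9 for Agpat4, 108 for Gnas (which overlaps other transcripts), 57.9 for Ptdss2, 64.9 for Efnb1 and 50.0 for Kcnh2. It was 153 CPM for Tox2, 44.7 for Cdk5rap3, 119.9 for Slc2a1 and 35.9 for Scrt2.

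The other 7 were spread over other libraries. Helt stood at 0.337 CPM in E17.5 replicate 4, Nek10 at 0.0406 CPM and Slit1 at 69.1 CPM in E11.5 replicate 4, and Tamm41 at 31.9 CPM in E11.5 replicate 2. In E11.5 replicate 1, Adamtsl3 stood at 0.0513 CPM, Gpr101 at 0.308 CPM and Zbtb16 at 42.6 CPM.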

How the results depend on the processing

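With -log10 q of at least 5 for H3K27ac peaks the members numbered 1730, 307 nearest genes were higher, 15.03% of members had H3K27me3 in all 3 E17.5 lists, 6.76% had CTCF, 11.6% had H3K4me3 in both E11.5 lists and 70.8% showed the pattern in the humanized line. With equal numbers of peaks per list these were 4951 members, 6.38% with CTCF, 9.07% with H3K4me3 and 47.5% with the pattern. A 50% overlap gave 2.702% for H3K27me3 at E11.5, 2.73% for CTCF, 61.3% with both humanized E11.5 lists and 57.9% with the pattern (59.2% where it applied to E17.5 only). Stricter peaks of the other marks gave 6.64% for H3K27me3 at E17.5, 2.35% at E11.5 and 4.39% for H3K4me3 at E11.5, and distance from all transcript starts gave 5.10% for the last. Within 100 kb 310 nearest genes were higher, and with domains of GREAT type 867. In alternatives chosen after seeing the data, windows of 300 bases gave 2.92% for CTCF, and members with -log10 q of at least 5 in both lists gave 301 lower and 217 higher genes. In windows of 1000 bases the OTX type motif stood 5.61 points above all distal regions and the TEAD type -2.52. The causes were not tested.

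Leaving out 1 library at a time gave 3268 to 7641 members (6231 and 7641 without E11.5 wild type H3K27ac replicates 1 and 2), 478 to 872 lower and 424 to 922 higher nearest genes, and 0 called between genotypes. Without those 2 libraries in turn, lower and higher genes were 785 and 798, and 872 and 922, and DESeq2 gave 539 and 535. The shares ranged from 8.61% to 12.4% for H3K27me3 at E17.5, 3.91% to 5.18% at E11.5, 3.48% to 5.31% for CTCF, 4.32% to 9.35% and 2.29% to 2.702% for H3K4me3 at E11.5 and E17.5, 35.6% to 73.19% for the humanized pattern and 75.8% to 77.3% for both humanized E11.5 lists. With the replicate number as a block, 517 genes were lower and 432 higher. Same-numbered wild type samples correlated between -0.45 and 0.29, so the stages share only a number. Among named genes 15 values no longer passed under an alternative (Zeb2, Nog and Slc2a1), 12 newly passed and 0 that passed in either fit reversed. CpG islands on a soft-masked genome were not run, since the reference used here is not soft-masked.

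Few ChIP replicates, peak calls in place of read counts, and lists of unequal length limit these comparisons. Signal under the caller's threshold and read depth per region were not analysed here.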
